A study of Mus musculus with 12 samples.

Results

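Otx2, Pou3f1, Sox3, Zic2, Zic5, Foxd3, Grhl2, Utf1 and Sall2 encode transcription regulators associated with the formative and primed states that follow naive pluripotency. They were taken by symbol from the 39017 genes of the deposited gene table, all 9 were found there, and all 9 passed the filter on low counts. Poly(A) RNA had been sequenced from mouse embryonic stem cells (mESCs) of 2 lines, each in 2 media, with 3 libraries in each of the 4 groups. J1 is a male wild-type line. 3B3L lacks the de novo DNA methyltransferase genes Dnmt3a and Dnmt3b (Dnmt3a-/-, Dnmt3b-/-) and carries Dnmt3b and its co-factor Dnmt3l as transgenes under the CAG promoter, a strong constitutive promoter. The serum groups were grown with fetal calf serum and LIF, for which the sample labels give 500 U/ml and the methods text 1000 U/ml. The 2i groups were grown in serum-free N2B27 medium with LIF at 1000 U/ml, the MEK inhibitor PD0325901 at 1 µM and the GSK3 inhibitor CHIR99021 at 3 µM. In serum J1 was kept on feeder cells, which were depleted by repeated plating before analysis or transfer to 2i, and 3B3L on gelatin, so line and culture surface cannot be told apart there. Each genotype was 1 line, so genotype and line cannot be told apart either.

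Naive mESCs resemble the epiblast before implantation. After implantation the epiblast passes through a formative phase, in which it becomes able to respond to inductive signals, and then a primed phase. FGF signals acting through MEK and ERK drive the transition, and 2i blocks them while mimicking Wnt signalling. OTX2 and OCT6 (the product of Pou3f1) open formative enhancers, ZIC and SOX factors prepare neural and epiblast genes, and GRHL2 keeps epithelial genes accessible. 2i also lowers DNA methylation in wild-type cells, and the 3B3L transgenes were built to keep it.

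The start sites of 5 of the 9 genes were in the RefSeq promoter table, with 9 windows of 250 bases (GRCm38.p6). Otx2 had 4 of them and Sall2 had 2. Pou3f1, Sox3, Zic2 and Grhl2 had none. The windows below are shown because the transcripts that begin there are compared later, and because Foxd3 had the opposite response to 2i in the 2 lines. Each is written 5′ to 3′ on the gene's strand, up to the first base of any transcript in the deposited files, with CpG, the dinucleotide that DNA methyltransferases act on, in capitals.
Otx2, middle start, chr14:48665247-48665359, minus strand: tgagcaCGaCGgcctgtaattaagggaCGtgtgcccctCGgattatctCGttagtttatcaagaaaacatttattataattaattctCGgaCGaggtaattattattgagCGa
Otx2, proximal start, chr14:48662873-48662984, minus strand: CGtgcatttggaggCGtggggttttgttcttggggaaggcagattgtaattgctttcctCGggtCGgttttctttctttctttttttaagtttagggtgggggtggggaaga
Sall2, distal start, chr14:52328763-52328920, minus strand: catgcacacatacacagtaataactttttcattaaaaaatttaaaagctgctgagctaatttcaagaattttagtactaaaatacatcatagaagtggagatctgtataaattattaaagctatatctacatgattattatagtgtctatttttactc
Sall2, proximal start, chr14:52316324-52316573, minus strand: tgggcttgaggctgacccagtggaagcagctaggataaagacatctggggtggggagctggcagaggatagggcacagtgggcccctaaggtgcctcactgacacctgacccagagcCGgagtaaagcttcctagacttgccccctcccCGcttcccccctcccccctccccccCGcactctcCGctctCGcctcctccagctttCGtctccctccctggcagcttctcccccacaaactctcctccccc
Foxd3, chr4:99656049-99656298, plus strand: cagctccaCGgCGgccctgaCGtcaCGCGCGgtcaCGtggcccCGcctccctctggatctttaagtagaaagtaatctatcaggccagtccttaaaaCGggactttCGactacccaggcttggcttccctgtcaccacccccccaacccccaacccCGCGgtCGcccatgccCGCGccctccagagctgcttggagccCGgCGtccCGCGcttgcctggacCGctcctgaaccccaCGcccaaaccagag

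The windows differed in CpG number. Over the whole 250 bases Foxd3 had 21 CpGs, more than 83.7% of the 32817 windows in the table, and the distal Sall2 window had 0. The proximal Sall2 window had 6, which is the median of all windows. The middle Otx2 window had 14 and the proximal 9. Short motifs were searched on both strands. TAATCC, the core that OTX homeodomains bind, was present in 6.25% of all windows and in 1 of the 9, the middle Otx2 window, where its reverse complement GGATTA begins with the G of a CpG. ATGCAAAT, the octamer of POU factors, was in 1.6% of all windows and CTTTGA, the core of TCF and LEF factors, in 13.83%. Neither was in any of the 9 windows.

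The libraries held 37050652 to 44515395 estimated reads. A library's 3 reads, given as a floor for reading low values and not put in place of 0, were worth 0.0684 to 0.0813 CPM (reads scaled to the depth of the library). The median coefficient of variation of the 9 genes between replicates was 4.78% to 8.53% per group, against 6.06% to 9.18% for all genes. Pou5f1, Nanog, Sox2 and the other 3 stem cell markers exceeded 1 CPM in every group. Dnmt3b was at 41.0 to 47.2 CPM in J1 in 2i and at 914 to 936 CPM in 3B3L in 2i. Dnmt3a, deleted in 3B3L, still had 29.4 to 34.3 CPM there in serum and 3.997 to 5.07 CPM in 2i, against 166 to 167 and 38.9 to 44.5 CPM in J1.

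Levels of different genes were compared per length, as CPM per kilobase of effective transcript length. In J1 in serum, Utf1 was at 243 ± 6.75 (SD, n = 3), Otx2 at 24.3 ± 0.403, Zic2 at 17.0 ± 0.494 and Zic5 at 14.7 ± 0.725. Grhl2, Foxd3 and Pou3f1 followed at 9.76 ± 0.477, 8.83 ± 0.576 and 7.05 ± 0.366. Sall2 was at 3.02 ± 0.163 and Sox3, at 1.19 ± 0.130, was the lowest of the 9.

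**Figure D1:**
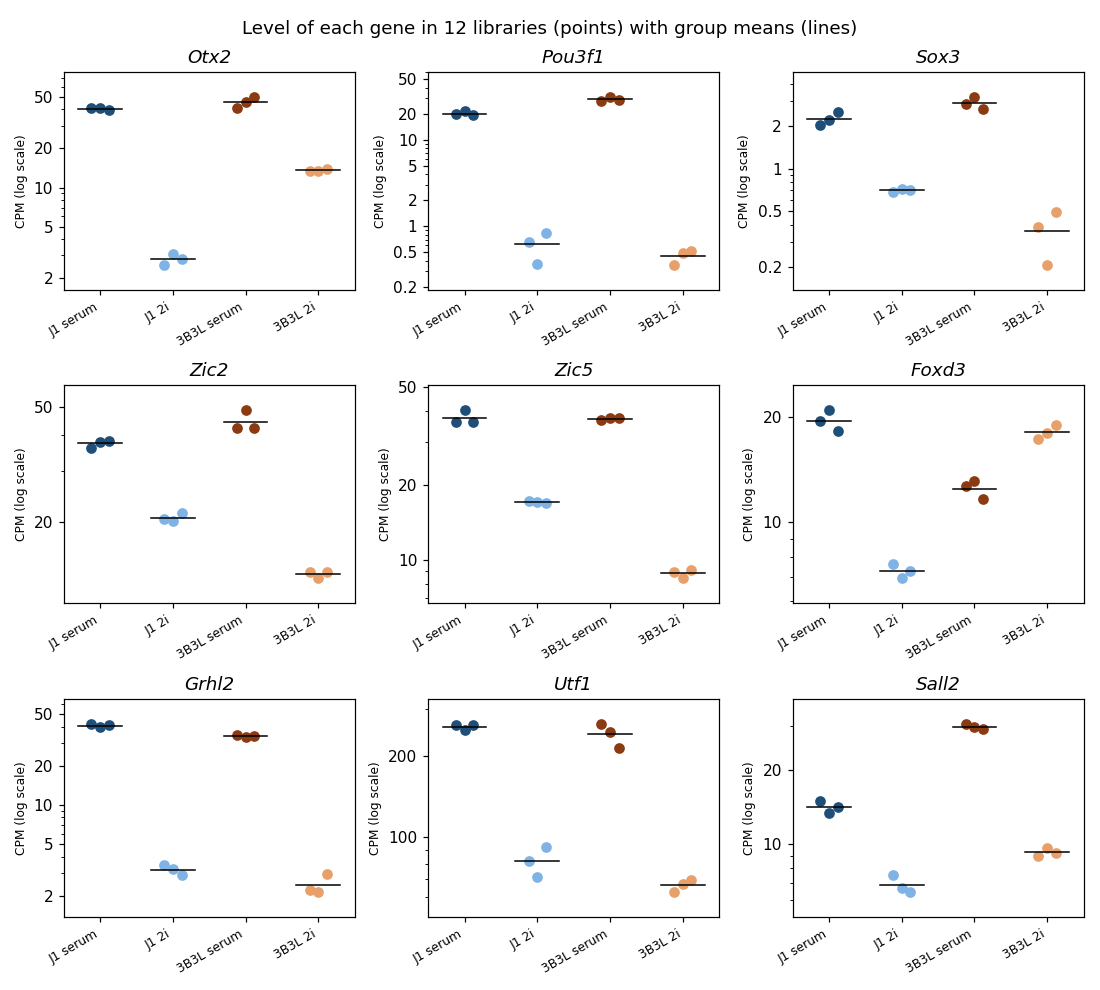
Level of each of the 9 genes in the 12 libraries in CPM on a log axis, with a separate scale for each gene, points for libraries and lines for group means. In 8 panels both serum groups lie above both 2i groups, and in the Foxd3 panel 3B3L in 2i lies beside J1 in serum.

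How 2i changed these genes in wild-type cells was tested first, with edgeR's quasi-likelihood test on all 17885 genes that passed the filter and Benjamini-Hochberg adjustment. All 9 genes fell in J1, 8 of them at least 2-fold. Over all genes tested, 32.9% fell and 14.5% fell at least 2-fold, and the median log2 fold change was 0.01, against -1.66 for the 9. Pou3f1, Otx2 and Grhl2 fell the most, and Zic2 was the gene that missed 2-fold. In bulk RNA, fewer cells expressing a gene and less RNA per cell cannot be told apart.

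Otx2 encodes the homeodomain factor that directs the naive to formative transition. In J1 in serum its level was 41.2, 40.8 and 39.4 CPM, and in J1 in 2i it was 2.55, 3.05 and 2.80 CPM. The groups were far apart, with a log2 fold change of -3.85 ± 0.09 (SE, adjusted p = 7.31e-15). In 3B3L it was 40.8, 45.7 and 49.8 CPM in serum and 13.4, 13.5 and 13.9 CPM in 2i. Every 2i library of 3B3L stood above every 2i library of J1 and below every serum library. The fall in 3B3L was -1.74 ± 0.07 (adjusted p = 4.77e-12), so that 29.9% of the serum level remained in 3B3L and 6.93% in J1. The difference between the 2 falls, tested as an interaction term, was 2.11 ± 0.11 (adjusted p = 5.91e-09).

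Pou3f1 encodes OCT6, a POU factor that works with OTX2 and is also known from neural and Schwann cells. It had the deepest fall of the 9. It was at 19.9, 21.2 and 19.1 CPM in J1 in serum and at 0.661, 0.367 and 0.829 CPM in 2i. In 3B3L it was at 28.0, 31.1 and 28.6 CPM in serum and at 0.361, 0.487 and 0.516 CPM in 2i. The 2i libraries of the lines overlapped, and they held only 15.2 to 34.0 estimated reads of the gene. Serum and 2i did not overlap in either line, and the log2 fold changes were -5.02 ± 0.14 in J1 (adjusted p = 8.62e-14) and -6.00 ± 0.15 in 3B3L (adjusted p = 1.66e-14). The fall was deeper in 3B3L by 0.98 ± 0.28 (interaction, adjusted p = 0.012), but without replicate 3 of J1 in 2i the interaction was -0.72 with an adjusted p of 0.059.

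Sox3, an X-linked SOXB1 gene of early epiblast and neural progenitors, was the least abundant. It had 2.03, 2.22 and 2.52 CPM in J1 in serum, 0.684, 0.712 and 0.707 CPM in J1 in 2i, 2.90, 3.23 and 2.65 CPM in 3B3L in serum and 0.385, 0.209 and 0.490 CPM in 3B3L in 2i. No 2 of the 4 groups overlapped, with 3B3L above J1 in serum and below it in 2i. The log2 fold changes for 2i were -1.68 ± 0.19 (adjusted p = 1.35e-06) in J1 and -3.02 ± 0.21 (adjusted p = 3.45e-09) in 3B3L, and the interaction was -1.34 ± 0.30 (adjusted p = 0.00297). The lowest group rested on 9.01 to 19.0 estimated reads per library.

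Zic2 and Zic5 encode zinc finger factors and lie beside each other on chromosome 14, at 122475384 to 122480328 and 122459160 to 122465658 (GRCm38.p6). Zic2 was at 36.2, 38.0 and 38.3 CPM in J1 in serum, 20.4, 20.04 and 21.4 CPM in J1 in 2i, 42.4, 48.8 and 42.5 CPM in 3B3L in serum and 13.3, 12.7 and 13.4 CPM in 3B3L in 2i. Zic5 was at 36.1, 40.1 and 36.0, then 17.3, 17.2 and 17.0, then 36.8, 37.4 and 37.4, and last 8.94, 8.46 and 9.13 CPM in the same groups. For both genes, 2i in 3B3L gave the lowest values, clear of J1 in 2i. Zic2 fell in both lines, with log2 fold changes of -0.86 ± 0.06 in J1 and -1.76 ± 0.06 in 3B3L (adjusted p = 4.78e-09 and 1.05e-12). Those of Zic5 were -1.12 ± 0.06 and -2.07 ± 0.06 (adjusted p = 6.19e-11 and 7.67e-14). The interactions were close in size, -0.90 ± 0.09 for Zic2 and -0.95 ± 0.08 for Zic5 (adjusted p = 2.11e-06 and 5.56e-07). This was also the pair of the 9 genes whose levels moved most alike over the 12 libraries, with a root mean square difference in centred log2 CPM of 0.21.

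Foxd3, a forkhead repressor needed by the epiblast and later by the neural crest, went against the other 8. It was at 19.4, 20.8 and 18.2 CPM in J1 in serum and 7.63, 6.95 and 7.27 CPM in J1 in 2i. In 3B3L it was at 12.7, 13.1 and 11.7 CPM in serum and 17.2, 17.9 and 18.9 CPM in 2i. The order of the groups was thus J1 in serum, 3B3L in 2i, 3B3L in serum and J1 in 2i, with overlap between the first and second alone. Foxd3 fell with 2i in J1 (-1.42 ± 0.07, adjusted p = 9.45e-11) and rose in 3B3L (0.53 ± 0.07, adjusted p = 6.56e-06). The interaction was 1.95 ± 0.10 (adjusted p = 4.15e-09). In the division of its variation, 74.6% lay in the combination of line and medium and 15.4% in the medium.

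Grhl2 encodes an epithelial factor of the grainyhead family. It was at 41.8, 39.3 and 40.8 CPM in J1 in serum, 3.42, 3.24 and 2.88 CPM in J1 in 2i, 34.5, 33.5 and 33.7 CPM in 3B3L in serum and 2.21, 2.15 and 2.94 CPM in 3B3L in 2i. Serum and 2i were far apart in both lines, and the 2 groups in 2i overlapped. The falls were -3.67 ± 0.09 in J1 and -3.80 ± 0.09 in 3B3L (adjusted p = 1.34e-14 and 1.21e-14). Their difference was -0.13 ± 0.13 (95% interval -0.41 to 0.15, adjusted p = 0.485) and did not pass the test.

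Utf1 encodes a chromatin-associated factor of pluripotent cells. It was at 262, 251 and 261 CPM in J1 in serum and 81.6, 71.4 and 92.4 CPM in J1 in 2i. For 3B3L the values were 264, 247 and 216 CPM in serum and 63.0, 67.3 and 69.6 CPM in 2i. The serum groups of the lines overlapped and the 2i groups did not. The falls were -1.66 ± 0.08 and -1.86 ± 0.09 (adjusted p = 7.31e-11 and 1.69e-11), with a difference of -0.20 ± 0.12 (95% interval -0.45 to 0.05, adjusted p = 0.196). Without replicate 2 of J1 in 2i that difference passed (-0.29, adjusted p = 0.0418).

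Sall2, a spalt zinc finger gene expressed in the developing nervous system, was at 15.0, 13.4 and 14.1 CPM in J1 in serum and 7.56, 6.66 and 6.46 CPM in J1 in 2i. In 3B3L it was at 30.5, 29.6 and 29.2 CPM in serum and 8.99, 9.66 and 9.23 CPM in 2i. No groups overlapped, and 3B3L was the higher line in each medium. The falls were -1.04 ± 0.07 in J1 and -1.68 ± 0.07 in 3B3L (adjusted p = 3.47e-09 and 4.32e-12), and the interaction was -0.64 ± 0.10 (adjusted p = 0.000155).

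**Figure D2:**
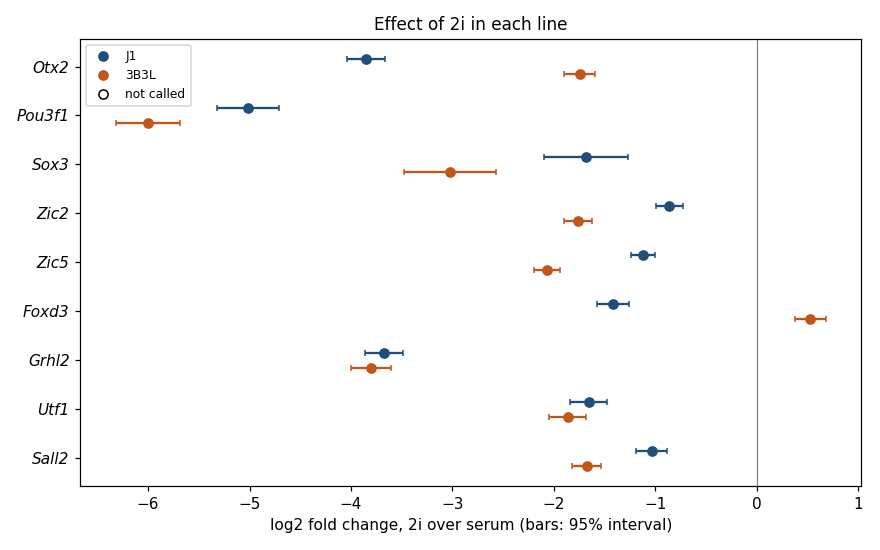
Log2 fold change of 2i over serum for each gene in J1 (blue) and 3B3L (orange), with 95% intervals from edgeR. Of the 18 points only Foxd3 in 3B3L, at 0.53, lies above 0, and the J1 and 3B3L intervals of Grhl2 and of Utf1 overlap.

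In 3B3L, then, 8 of the 9 genes fell, each at least 2-fold, and Foxd3 rose. Of all genes tested in that line 32.7% fell, 16.1% fell at least 2-fold and 32.7% rose. Both comparisons had their own control libraries. The interaction passed the test for 7 of the 9 genes, with 34.7% of all genes passing it, 16.3% upward and 18.3% downward. It passed at 2-fold for 3 of the 9 genes and for 8.22% of all genes, and for 5 of the 9 without replicate 2 of J1 in serum. It was positive for Otx2 and Foxd3 and negative for Pou3f1, Sox3, Zic2, Zic5 and Sall2, which means a deeper fall in 3B3L for those 5. The medium held 72.9% to 98.9% of the variation in log2 CPM for the 8 genes other than Foxd3, and the median over all genes tested was 49.1%.

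**Figure D3:**
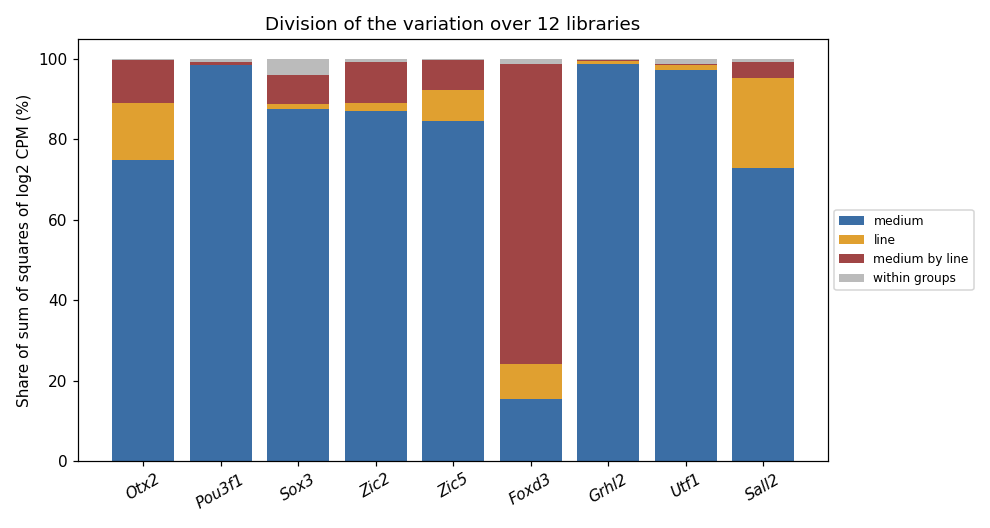
Share of the sum of squares of log2 CPM over the 12 libraries due to medium, line, their combination and spread within groups, for each gene in percent. The medium part is 72.9% or more in 8 bars, and the combination is the main part of the Foxd3 bar.

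Whether constitutive methyltransferase expression went with other levels in the same medium was asked by comparing the lines. In serum 5 of the 9 genes differed, against 38.7% of all genes tested, of which 21.5% were higher and 17.2% lower in 3B3L. Sall2 was higher in 3B3L by 1.07 ± 0.07 on the log2 scale (adjusted p = 1.29e-08), Pou3f1 by 0.54 ± 0.09 (adjusted p = 0.000227) and Zic2 by 0.25 ± 0.06 (adjusted p = 0.00381). Foxd3 was lower with a log2 fold change of -0.64 ± 0.07 (adjusted p = 4e-06). Grhl2 was lower at -0.26 ± 0.07 (adjusted p = 0.0077), a call that was not made when the mean transcript length of each library entered the fit (-0.14, adjusted p = 0.335). Otx2 (0.17, 95% interval 0.03 to 0.31, adjusted p = 0.0599), Sox3 (0.38, 0.03 to 0.73, adjusted p = 0.0821), Zic5 (-0.01, -0.12 to 0.11, adjusted p = 0.924) and Utf1 (-0.09, -0.26 to 0.08, adjusted p = 0.407) did not pass. Otx2 passed without replicate 1 of 3B3L in serum (0.24, adjusted p = 0.00735), and Sox3 without replicate 2 of 3B3L in 2i (0.38, adjusted p = 0.0462). The sign of the Zic5 value turned without replicate 2 of J1 in serum (0.0459).

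In 2i, 8 of the 9 genes differed between the lines, against 45.9% of all genes, 23% higher and 22.9% lower. Otx2 was higher in 3B3L by 2.27 ± 0.09 (adjusted p = 5.47e-11), which is 4.84-fold. Foxd3 was higher by 1.31 ± 0.07, or 2.47-fold (adjusted p = 2.17e-09), and Sall2 by 0.43 ± 0.07 (adjusted p = 0.000204). The lower genes were Sox3 at -0.97 ± 0.26, Zic5 at -0.96 ± 0.06, Zic2 at -0.65 ± 0.07, Grhl2 at -0.39 ± 0.11 and Utf1 at -0.30 ± 0.08 (adjusted p = 0.00563, 8.34e-09, 9.84e-07, 0.00961 and 0.00931). Pou3f1 did not pass (-0.44, 95% interval -0.99 to 0.12, adjusted p = 0.188), although it did without replicate 2 of J1 in 2i (-0.71, adjusted p = 0.0204). Utf1 was lost without replicate 3 of J1 in 2i (-0.20, adjusted p = 0.053), and Grhl2 without replicate 1 of 3B3L in 2i (-0.33, adjusted p = 0.0504). Sall2 was therefore higher in 3B3L in both media, whereas Foxd3 and Zic2 changed side between the media. Grhl2 was called lower in 3B3L in both media, but each call was lost under an alternative, and its 2i libraries overlapped.

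**Figure D4:**
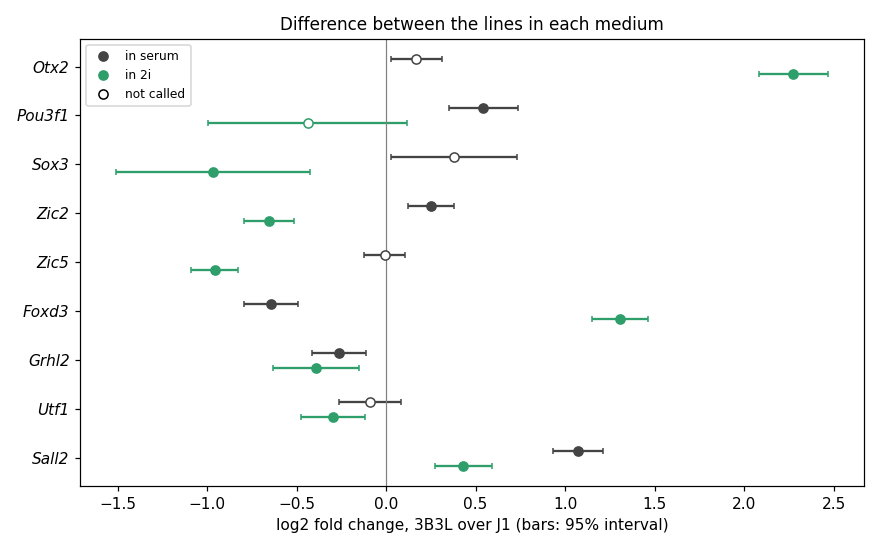
Log2 fold change of 3B3L over J1 for each gene in serum (grey) and 2i (green), with 95% intervals and open symbols where the adjusted p missed 0.05. Otx2 in 2i lies farthest to the right at 2.27, and Foxd3 goes from -0.64 in serum to 1.31 in 2i.

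The files also split each gene's reads over annotated transcripts by a statistical estimate, so the values below are described without a test. Sall2 had 2 transcripts. Sall2-002, from the proximal start, was estimated at 11.3, 10.5 and 10.2 CPM in J1 in serum and at 7.56, 6.66 and 6.46 CPM in 2i. The 3B3L libraries had 24.8, 22.8 and 21.8 CPM in serum and 8.99, 9.66 and 9.23 CPM in 2i. Sall2-001, from the distal start with no CpG, was at 3.65, 2.94 and 3.87 CPM in J1 in serum and at 5.64, 6.76 and 7.39 CPM in 3B3L in serum. It was listed at 0 in all 6 libraries in 2i, in both lines. In serum it made up 23.2% ± 2.70 of the TPM (transcript abundance scaled for length and depth) of the gene in J1 and 20.9% ± 3.28 in 3B3L (SD, n = 3). The shares of the lines differed by less than their SD, at levels that differed 2.10-fold for the whole gene.

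Grhl2 changed in a different way. Its long coding transcript, Grhl2-001, was estimated at 38.1, 35.0 and 37.3 CPM in J1 in serum and at 0.632, 0 and 0.501 CPM in 2i. The 3B3L libraries had 29.6, 28.1 and 28.7 CPM in serum and 1.13, 0.651 and 0.271 CPM in 2i. Grhl2-003, annotated as a processed transcript without a coding sequence, was at 3.40, 3.36 and 3.18 CPM in J1 in serum and at 2.76, 2.86 and 2.38 CPM in 2i. In 3B3L it went from 4.18, 4.51 and 4.40 CPM to 1.09, 1.504 and 2.62 CPM. Its share of the TPM of Grhl2 was thus 9.85% ± 0.338 and 14.3% ± 0.757 in serum and 81.9% ± 4.72 and 74.6% ± 16.6 in 2i, for J1 and 3B3L respectively. Most of the Grhl2 reads left in 2i were assigned to the transcript without a coding sequence. In the J1 library where Grhl2-001 was listed at 0, 0.345 CPM were assigned to another coding transcript, Grhl2-002.

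Of the 8 Otx2 transcripts, Otx2-003 from the proximal start and Otx2-001 from the middle start held most reads in every group. In J1 in serum Otx2-003 made up 51.4% ± 3.01 and Otx2-001 29.7% ± 4.07 of the TPM. In 3B3L the shares were 51.1% ± 2.61 and 29.1% ± 1.52 in serum and 51.1% ± 2.53 and 29.6% ± 2.78 in 2i. In J1 in 2i they were 40.7% ± 16.4 and 39.0% ± 17.9, where the gene had 112 to 133 estimated reads per library and Otx2-001 exceeded Otx2-003 in 2 of the 3 libraries. The split in that group could not be told at this depth. The higher Otx2 level of 3B3L in 2i was present in both: Otx2-003 was at 6.81, 6.57 and 6.78 CPM there, against 1.43, 0.822 and 0.779 CPM in J1, and Otx2-001 at 5.53, 5.18 and 5.003 CPM against 0.655, 1.94 and 1.41 CPM.

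**Figure D5:**
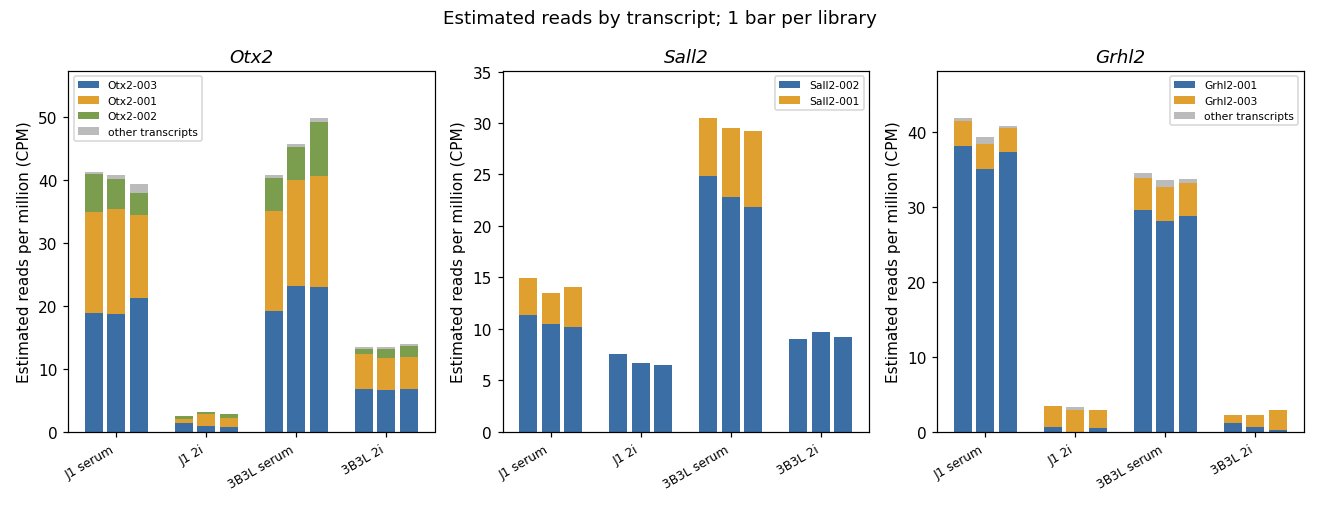
Estimated reads in CPM assigned to the transcripts of Otx2, Sall2 and Grhl2, stacked, with 1 bar for each library. The Sall2-001 part is absent from the 6 bars in 2i, and Grhl2-003 is the larger part of 5 of the 6 low Grhl2 bars in 2i.

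Neighbouring genes were looked at next, taking the nearest genes with a symbol match. The long noncoding gene 2610035F20Rik lies between Zic5 and Zic2, 185 bases from Zic2, and fell with both. Its J1 level was 4.72 ± 0.0479 CPM in serum and 1.74 ± 0.0970 in 2i, and its 3B3L level 3.997 ± 0.445 and 1.08 ± 0.265 (log2 -1.44 and -1.89, adjusted p = 1.96e-07 and 1.89e-08). On the other side of Zic2, Pcca, a mitochondrial carboxylase subunit, rose in J1 and fell in 3B3L (log2 0.33 and -0.29, adjusted p = 0.000211 and 0.000553). Kndc1, 2316 bases from Utf1, fell as well, J1 going from 12.2 ± 0.766 to 3.37 ± 0.294 CPM and 3B3L from 12.4 ± 0.530 to 3.90 ± 0.662 CPM (log2 -1.86 and -1.66, adjusted p = 3.24e-10 and 8.9e-10). Gm16136, which overlaps Grhl2, had 0.340 ± 0.173 CPM in J1 and 0.306 ± 0.102 CPM in 3B3L in serum and no read in 2i. Ncald, 2606 bases from Grhl2, fell in 3B3L (log2 -1.32, adjusted p = 0.0109) and did not pass in J1 (log2 -1.03, adjusted p = 0.0731). Zfp706, 225419 bases from Grhl2, rose in both lines (log2 0.40 and 0.75, adjusted p = 1.15e-06 and 4.89e-10). Mettl3, an RNA methyltransferase gene 2436 bases from Sall2, had 39.0 ± 0.956 CPM in J1 in serum and 41.9 ± 2.65 CPM in 2i. It did not pass in J1 (log2 0.10, adjusted p = 0.156) and rose with 2i in 3B3L (log2 0.19, adjusted p = 0.0118). Alg6, 56925 bases from Foxd3, rose with 2i in both lines, by 0.97 in J1 and 0.86 in 3B3L (adjusted p = 4.58e-08 and 1.6e-07). Fhl3, 35309 bases from Pou3f1, rose in both lines (log2 1.56 and 1.16, adjusted p = 3.48e-10 and 5.74e-09). Of the neighbours of Otx2, Peli2, 375203 bases away, rose (log2 1.29 and 1.00, adjusted p = 8.9e-10 and 9.3e-09). Exoc5, 344278 bases away, fell (log2 -0.25 and -0.46, adjusted p = 0.0341 and 0.000533). Gm16201, 4886 bases from Utf1, fell in both lines (log2 -4.33 and -4.44, adjusted p = 1.54e-08 and 1.48e-09). Gm5089, 8014 bases from Zic5, fell in 3B3L (log2 -1.83, adjusted p = 0.000198) and did not pass in J1 (log2 -0.03, adjusted p = 0.961). The filter on low counts removed Olfr1511, Cdr1, Gm12684, Gm14660 and 1700057H15Rik. The neighbours thus moved in both directions, and those that rose in both lines lay 35309 to 375203 bases away.

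Relatives of the 9 genes did not share a single direction. Of 18 listed paralogs 11 passed the filter, of which 4 rose, 4 fell and 3 did not pass the test in J1, and 4 rose, 5 fell and 2 did not pass in 3B3L. Grhl1, a second grainyhead gene, fell, with 12.9 ± 0.698 CPM in J1 serum and 3.51 ± 0.349 in J1 2i, and 10.5 ± 0.480 in 3B3L serum and 2.81 ± 0.197 in 3B3L 2i (log2 -1.87 and -1.90, adjusted p = 2.89e-11 and 3.64e-11). Sall4, a core pluripotency factor, fell with -0.93 and -0.39 (adjusted p = 1.62e-10 and 4.21e-06). Sall3 moved against Sall2 and rose, J1 going from 4.84 ± 0.531 to 12.1 ± 0.439 CPM and 3B3L from 2.92 ± 0.280 to 13.9 ± 0.711 CPM (log2 1.31 and 2.25, adjusted p = 2.54e-09 and 6.76e-12).

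The 15 other formative and primed genes were also mixed, with 11 lower and 4 higher in J1 and 10 lower, 3 higher and 2 not passing in 3B3L. Of all genes tested 32.9% fell and 33.2% rose in J1, and 32.7% fell and 32.7% rose in 3B3L. The median log2 fold changes of the list were -1.67 and -1.32. Fgf15, an FGF ligand of the early neural plate, was at 21.4 ± 2.28 CPM in J1 serum, 0.782 ± 0.166 in J1 2i, 20.8 ± 1.51 in 3B3L serum and 0.498 ± 0.131 in 3B3L 2i (log2 -4.78 and -5.37, adjusted p = 1.09e-13 and 5.55e-14). Sox11 fell with log2 fold changes of -3.90 and -4.93 (adjusted p = 2.25e-12 and 3.48e-13) and Tcf15, a bHLH factor of formative cells, with -3.29 and -2.70 (adjusted p = 5.09e-13 and 3.56e-12). Fgf5, the FGF ligand of primed epiblast, had 1.19 to 1.79 CPM in J1 and 4.70 to 5.69 CPM in 3B3L in serum, and at most 0.122 CPM in 2i, close to the value of 3 reads.

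Naive pluripotency genes, which 2i is known to raise, were counted as a contrast. Of 10 tested, 6 rose, 3 fell and 1 did not pass in J1, and 9 rose and 1 fell in 3B3L, with medians of 0.64 and 0.78. Of all genes tested 33.2% rose in J1 and 32.7% in 3B3L. Tbx3 rose, with 39.0 ± 1.07 CPM in J1 serum, 220.4 ± 10.6 in J1 2i, 50.4 ± 3.66 in 3B3L serum and 239.6 ± 1.23 in 3B3L 2i (log2 2.499 and 2.25, adjusted p = 9.29e-15 and 1.86e-14). Klf4 rose by 1.51 and 1.55, Prdm14 by 1.31 and 1.94, and Nanog by 1.04 and 0.78 (adjusted p = 1.04e-13 and 6.11e-14, 1.04e-11 and 1.19e-13, and 9.33e-12 and 2.52e-10). Foxd3 in 3B3L therefore moved in the direction of most of this list and opposite to the other 8 genes.

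Genes with the most similar pattern were found by the root mean square difference of centred log2 CPM over the 12 libraries. For Otx2 they were Spna1 (0.26) and Vgll3 (0.28), and Spna1 went through 16.3, 1.17, 24.7 and 4.98 CPM in J1 serum, J1 2i, 3B3L serum and 3B3L 2i. The pattern of Foxd3 was matched by Eps8 (0.10), at 30.2, 12.4, 22.6 and 31.4 CPM in that order, and by Fam169b (0.18). Zic2 was nearest to Fbn1 (0.11) and Chd7 (0.11), Zic5 to Myh10 (0.10) and Nt5dc2 (0.10), and Sall2 to Rimkla (0.11) and Piwil2 (0.13). Utf1 was nearest to Zfp36 (0.12) and Cabp7 (0.13), and Sox3 to Jun (0.17) and Chst15 (0.19). Grhl2 was matched by Elavl3 (0.18) and Arrb1 (0.19). Pou3f1 had the least close matches, Id2 (0.29) and Kif1a (0.35), with Id2 at 21.2, 0.626, 30.4 and 0.546 CPM.

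Markers of other cell types also differed between the media, most lists lower in 2i and 1 higher. The summed level of 9 fibroblast markers was 54.6 to 58.5 CPM in J1 in serum and 9.78 to 11.4 CPM in 2i, and 67.6 to 80.0 CPM in 3B3L in serum and 10.6 to 11.005 CPM in 2i, mostly Col1a1, Col1a2, Thy1 and Fbn1. In serum, over both lines, Col1a1 was at 27.8 to 40.4 CPM and Col1a2 at 8.15 to 14.4 CPM. Thy1 was at 11.2 to 15.6 CPM and Fbn1 at 6.27 to 8.60 CPM there. The other markers of the list, Col3a1, Postn, Twist2, Dcn and Lum, stayed below 1 CPM in every library. Lum was at 0 in all but the 3B3L serum group, where it reached 0.0258 CPM, and Dcn did not exceed 0.261 CPM. Neural markers, with 5 of 6 in the table, summed to 72.7 to 78.3, 21.4 to 25.2, 117.5 to 129 and 37.4 to 39.1 CPM in J1 serum, J1 2i, 3B3L serum and 3B3L 2i. They were led by Nes, while Pax6 was at 7.21 to 9.06 CPM in serum and at most 0.490 CPM in 2i, and Neurog2 did not exceed 0.0542 CPM. Neural crest markers, with 2 of 3 in the table, summed to 4.34 to 5.56, 0.585 to 0.820, 8.01 to 8.39 and 0.626 to 0.986 CPM, so Foxd3 in 3B3L moved opposite to them. Endoderm markers summed to 8.53 to 9.17, 6.31 to 7.06, 15.7 to 17.1 and 7.86 to 8.43 CPM, but their members differed. Dab2 was lower in 2i, at 4.70 to 5.47 and 0.918 to 1.39 CPM in J1 and 8.43 to 10.02 and 1.64 to 2.01 CPM in 3B3L. Gata4 was higher in 2i, at 1.62 to 2.55 and 3.90 to 4.27 CPM in J1 and 3.22 to 3.76 and 4.13 to 4.26 CPM in 3B3L. Primitive streak markers went the other way, at 4.12 to 4.34, 38.3 to 44.0, 4.94 to 5.51 and 26.9 to 28.0 CPM, led by Eomes and T. The part of these cell states in the changes of the 9 genes was not tested.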

How the data were processed

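Libraries were made with a stranded poly(A) kit and sequenced on an Illumina NextSeq, 24 libraries in 2 pools of 12, with the pool of each library not given in the sources used here. The authors estimated transcript abundance with Sailfish 0.9.2, strand-aware, on mm10 transcript models, and summed it per gene. The deposited gene table holds estimated counts, unnormalised and not always whole, and the deposited files of each library hold TPM and estimated counts per transcript. For this report the estimated counts were rounded, genes with low counts were removed with filterByExpr (17885 of 39017 kept), libraries were scaled by TMM, and edgeR 4.0.16 (R 4.3.3) fitted 1 coefficient per group over the 12 libraries, with the quasi-likelihood test, Benjamini-Hochberg adjustment over all genes tested and a threshold of 0.05. A call at 2-fold also needed a log2 fold change of 1 or more in size. SEs were the fold change divided by the root of F. CPM use the TMM-scaled library sizes, and patterns were compared on log2 CPM with a prior count of 2. Intervals of 95% and the floor of 3 reads cover counting error and the spread between these libraries only. The methods text calls the replicates biological, without saying whether they were separate cultures, so p-values measure the spread between these samples. Any 2 replicates differed by more than sampling noise (chi-square per gene 3.93 to 24.3).

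The 9 genes and the lists of paralogs, formative and primed genes, naive genes and cell type markers were chosen with earlier results of these data known. All 9 genes are named. From each list the 4 with the largest change in J1 among those at 1 CPM or more in the highest group are named, with the neighbours of each gene and the 2 genes of most similar pattern. 1 gene that this rule names is not reported here. Of the Ensembl identifiers, 33398 matched a symbol. Transcripts were assigned to genes by the GENCODE vM1 annotation (85524 of 94647), and the reads of the 9 genes then added up to the gene table within 1 read. Coordinates and promoters are from RefSeq (GRCm38.p6, the mm10 build), and the bases that lie inside a transcript of the files were left off the sequences printed. Alternatives were DESeq2 1.42.0 and its size factors, other filters on low counts, a replicate block, transcript length offsets, a fit of only the libraries compared, and leaving out each library. The fit was tested on simulated data.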

Additional observations from a re-analysis of the deposited data

Results flagged for a closer look

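The response to 2i differed between J1 and 3B3L by the interaction term of the edgeR fit for 7 of the 9 genes. The values, as the log2 change in 3B3L minus that in J1, were 2.11 for Otx2, 1.95 for Foxd3, -0.64 for Sall2, -0.90 for Zic2, -0.95 for Zic5, -0.98 for Pou3f1 and -1.34 for Sox3. For Foxd3 the 3 libraries of 3B3L in 2i were above the 3 in serum, and the 3 libraries of J1 in 2i were below the 3 in serum. For the other 6 genes both lines fell. Of all genes tested, 34.7% differed in this way.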

How the results depend on the processing

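Of 841 values of the 9 genes recomputed under 19 alternatives, 830 kept their direction and their side of the threshold, 4 lost a call, 5 gained one and 2 changed sign. The sign changes were both of Zic5 between the lines in serum, from -0.01 to 0.0659 with transcript length offsets and to 0.0459 without replicate 2 of J1 in serum, in a range of -0.0337 to 0.0459 over the libraries left out. The number of genes called at 2-fold in the interaction was 3, and 3 to 5 when single libraries were left out, with 5 reached without replicate 2 of J1 in serum. Utf1 gained a call in the interaction without replicate 2 of J1 in 2i (-0.29, adjusted p = 0.0418), and Otx2 in serum with at least 10 counts in every library (0.17). Sox3 did not pass that filter and has no value under it. The cause of these changes was not tested. Same-numbered replicates did not deviate together (18 pairs, r from -0.12 to 0.06), so the values gave no sign of pairing by number. Whether same-numbered samples were grown or processed together cannot be told from this. The fit with a replicate block called 9, 9, 5, 8 and 7 genes in the 5 comparisons, the same counts as without it. Of 60 transcript shares, 39 did not stay within 1 SD when computed from reads in place of TPM. The 39 include shares without any spread or change, such as those of the Sall2 transcripts in 2i. Depth limits Pou3f1 and Sox3 in 2i, with 34 reads or fewer per library. It also limits the split of transcripts of Otx2 in J1 in 2i, at 112 to 133 reads per library. The same holds for Grhl2 in 2i, at 92.0 to 150 reads per library over both lines.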
